A study of Mus musculus with 11 samples.

Results

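Hearts of CD mice that had received JZL184 (CD JZL184, n = 3) were compared with hearts of wild-type mice that had received vehicle (WT VEH, n = 2), to see which genes differed from the control level after the treatment. The CD mouse carries a heterozygous deletion of the chromosome 5 interval from Gtf2i to Fkbp6, which corresponds to the region lost in Williams-Beuren syndrome (WBS), a developmental disorder with frequent cardiovascular disease. JZL184 inhibits monoacylglycerol lipase, the enzyme that breaks down the endocannabinoid 2-AG, and was injected at 8 mg/kg daily for 10 days. All mice were males of 8 to 16 weeks on a C57BL/6J background, the WT mice were littermates of the CD mice, and heart RNA was sequenced, with ventricle as the source in the labels. The titles of the WT VEH samples give vehicle, whereas their treatment field calls them untreated. This comparison changes genotype and treatment together, so a difference cannot be assigned to either from these 5 mice alone. The table also holds vehicle-treated CD mice (CD VEH, n = 3) and JZL184-treated WT mice (WT JZL184, n = 3), whose values are given beside those of the compared groups. Mice are named by group and by the letter in their column heading. Of 22608 genes in the table, 12240 had a mean of at least 1 CPM (a count relative to the size of its library) over the 11 mice and were tested.

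The WBS interval holds genes for transcription factors, chromatin remodelers, a mitochondrial chaperone, a translation factor and elastin, and a carrier of the deletion has 1 copy of each where a wild-type animal has 2. In the heart, a loss of elastin affects the arteries and the load on the ventricle. Muscle cells in a heart under load are known to return to a fetal pattern of expression, with more natriuretic peptides, skeletal alpha-actin and slow myosin.

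Total counts were 69660232 to 92251443 per mouse, so that 3 counts corresponded to 0.0325 to 0.0431 CPM before TMM scaling. Ventricular cardiomyocyte markers were high in all mice, with a summed level of 44424 to 46175 CPM in CD JZL184 and 46251 to 47596 CPM in WT VEH. The T, B and NK cell markers did not reach the expression filter (0 of 8), nor did 5 of 8 skeletal muscle markers. The share of all counts that came from mitochondrial genes was 36.4% to 40.1% in CD JZL184 and 39.4% to 41.2% in WT VEH, against 43.5% to 44.7% in CD VEH and 45.0% to 46.6% in WT JZL184. Leaving these genes out before scaling gave 24 DEGs, as many as with them.

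Few genes differed between CD JZL184 and WT VEH hearts. The differentially expressed genes (DEGs, edgeR adjusted p under 0.05) numbered 24, or 0.196% of the tested genes. Of these, 5 were higher in CD JZL184 (0.0408%) and 19 were lower (0.155%). Inside the deleted interval lay 15 of the DEGs, all of the interval genes that passed the filter, and the other 9 lay on 7 chromosomes. The median absolute log2 fold-change over all tested genes was 0.086, below the median standard error of 0.10. For 10644 genes (87.0%), the 95% interval of the difference lay within 1.5-fold in either direction. For 1572 genes without a call (12.8%) it did not, so for these genes 5 mice did not bound the difference that closely. Without adjustment, 1150 genes (9.4%) had a p-value under 0.05, 601 of them higher and 549 lower.

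**Figure D1:**
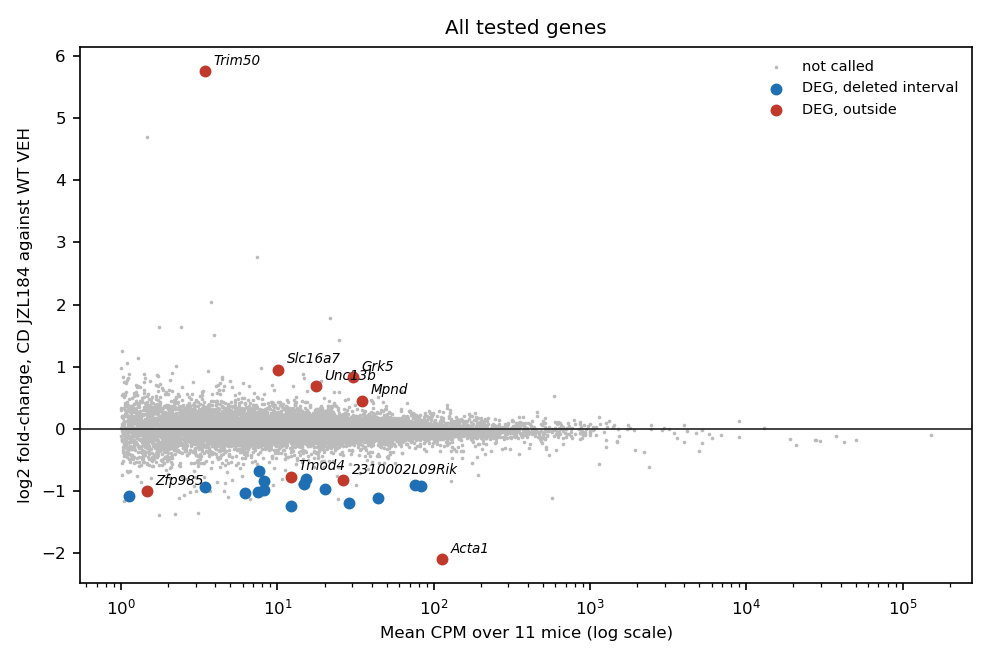
Log2 fold-change of CD JZL184 against WT VEH (vertical axis) against the mean CPM over 11 mice (horizontal axis, log scale) for each of the 12240 tested genes. Grey points are genes without a call, blue points the 15 DEGs of the deleted interval and red points the 9 DEGs outside it. Trim50 at 5.75 and Acta1 at -2.09 are the highest and the lowest of the DEGs.

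The 2 compared groups were close to each other relative to the other comparisons of the design, which share mice with it. The median absolute log2 fold-change was 0.086 here, 0.194 between CD VEH and WT VEH, 0.190 between WT JZL184 and WT VEH, 0.179 between the treated and the vehicle CD mice and 0.189 between the treated mice of both genotypes. It was 0.076 in CD VEH against WT JZL184, which uses none of the 5 mice. The mitochondrial share of counts split the 4 groups in the same way. So did the summed levels of the endothelial markers (678 to 764 CPM in CD JZL184 and 692 to 698 CPM in WT VEH, against 879.5 to 1068 CPM in the other mice), of the smooth muscle and pericyte markers (606 to 625 CPM in the compared mice, against 844 to 971 CPM) and of the macrophage markers (162 to 183 CPM, against 225 to 363 CPM). The part of these values in the medians was not tested. The labels name no date or batch of extraction or library preparation, so a batch shared by CD JZL184 and WT VEH cannot be told apart from the groups. The genes of the deleted interval check the genotype labels, as all 6 CD mice lay below all 5 WT mice in each of the 15 tested genes, but the treatment labels were not checked against any measurement. Both limits bear on the small number of DEGs. The interaction of genotype and treatment, tested after the data were seen, was called for 50.3% of the tested genes.

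Genes of the deleted interval (chromosome 5, 134237834 to 135350044, GRCm38) were lower in CD JZL184 at about the loss of 1 of 2 copies. The median log2 fold-change of the 15 tested genes was -0.97, with a range from -1.24 (Mlxipl) to -0.67 (Gtf2ird1). The value for the loss of 1 of 2 copies is -1 and lay inside the 95% interval of 12 genes. The interval of Mlxipl lay below -1, and those of Gtf2ird1 and Bcl7b above it. In each of the 15 genes, the 3 CD JZL184 mice lay below the 2 WT VEH mice. Groups did not overlap for 36.3% of all tested genes.

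Among the regulators of transcription and chromatin, Gtf2i, which encodes the transcription factor TFII-I, had 66.4, 65.8 and 68.2 CPM in CD JZL184 and 129 and 123 CPM in WT VEH. Its log2 fold-change was -0.92 (SE 0.07, edgeR adjusted p = 3.23e-05). The level in CD VEH was lower than in CD JZL184, at 51.0 to 57.1 CPM, and that in WT JZL184 was 94.4 to 104 CPM. Baz1b, a subunit of chromatin remodeling complexes, had 34.2, 29.7 and 34.0 CPM against 73.1 and 68.2 CPM (log2 fold-change -1.11, SE 0.08). Mlxipl encodes ChREBP, which activates glycolytic and lipogenic genes when glucose is high, and had 9.28, 9.08 and 8.51 CPM against 20.8 and 21.4 CPM. Gtf2ird1, a relative of Gtf2i, had the smallest difference of the interval, with 6.44, 7.27 and 7.12 CPM against 11.1 and 10.99 CPM. Bcl7b, a subunit of the BAF chromatin complex, had 10.8, 10.99 and 10.7 CPM against 18.5 and 19.3 CPM.

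Among the other genes of the interval, Eif4h, a cofactor of the translation initiation helicase, had 52.3, 55.1 and 54.4 CPM in CD JZL184 and 99.2 and 103 CPM in WT VEH. This was the lowest adjusted p of the interval (edgeR adjusted p = 2.57e-05, with -0.91 as the log2 fold-change and an SE of 0.06). Dnajc30, a mitochondrial chaperone of the DnaJ family, had a log2 fold-change of -0.89 and Bud23, a methyltransferase of ribosomal RNA, of -1.04. The annotated spans of these 2 genes overlap by 758 bases on opposite strands, and the sources used here do not say whether the counting used strand. Rfc2, a subunit of the clamp loader in DNA replication, had a log2 fold-change of -0.83, and the mitochondrial hydrolase gene Abhd11 of -0.97. Clip2, a linker of membranes to microtubules, had a log2 fold-change of -0.98, Limk1, a kinase that inactivates cofilin, of -0.93, the syntaxin gene Stx1a of -1.07 and Tbl2 of -1.01.

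Eln, which encodes elastin, had 12.0, 17.9 and 16.9 CPM in CD JZL184 and 34.7 and 36.4 CPM in WT VEH. The groups did not overlap, and the log2 fold-change was -1.19 (95% interval -1.64 to -0.74, edgeR adjusted p = 0.0453). In CD VEH, Eln had 15.7, 21.5 and 26.4 CPM, and in WT JZL184 37.7, 52.1 and 42.4 CPM. The call of Eln was lost without any 1 of the 5 compared mice, with adjusted p-values up to 0.404. Limk1 lost its call without either WT VEH mouse (adjusted p up to 0.101), Stx1a without CD JZL184 mouse C or E or either WT VEH mouse (up to 0.258), and Gtf2ird1 without CD JZL184 mouse A or E or either WT VEH mouse (up to 0.253). The other 11 interval genes were DEGs in all 17 alternatives that had a test.

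**Figure D2:**
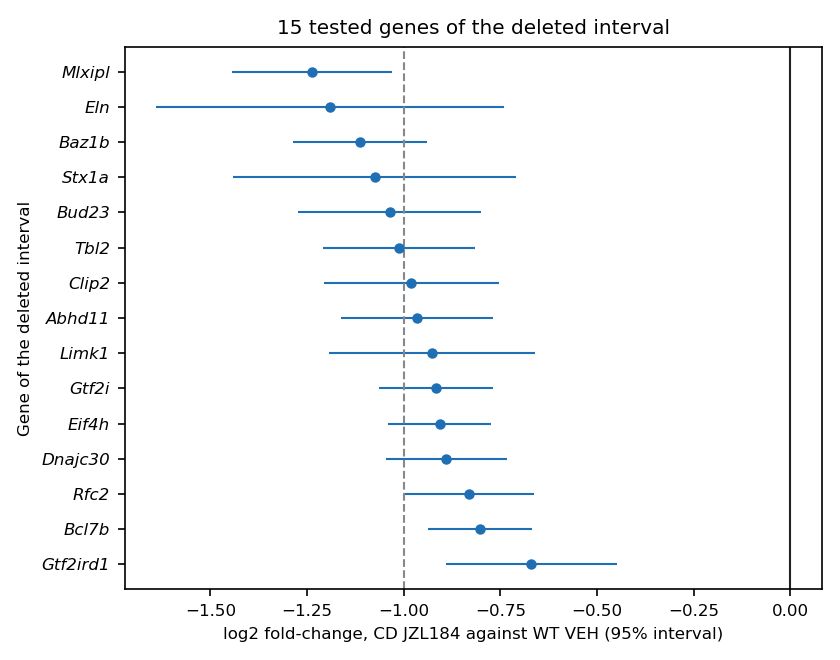
Log2 fold-change of CD JZL184 against WT VEH (horizontal axis) for the 15 tested genes of the deleted interval, ordered by value. Points are estimates, bars are 95% intervals, the dashed line marks -1 and the solid line 0. All 15 lie between -1.24 and -0.67, and 12 of the bars cross the dashed line.

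Of 25 interval genes in the table, 10 did not pass the filter and had no test. Fkbp6, at the edge of the interval, had more counts in mice with the deletion. It was listed with 94, 73 and 83 counts in CD JZL184 and 64 to 83 in CD VEH, against 4 and 1 in WT VEH and 1 to 5 in WT JZL184. Fkbp6 encodes an immunophilin-type protein needed for male meiosis. Gene-level counts do not show which part of the transcript they came from. Lat2 had 34, 30 and 30 counts in CD JZL184 and 68 and 62 in WT VEH, and Fzd9, a Wnt receptor gene, had 19, 31 and 37 against 60 and 68. Mettl27 had 51, 36 and 47 against 48 and 62, and Vps37d 13, 15 and 11 against 12 and 11. Syna, Tmem270, Cldn3, Cldn4 and Cldn13 had at most 5 counts in any of the 5 mice.

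Next to Fkbp6, Trim50 was close to absent in WT VEH and clearly detected in CD JZL184. Trim50 (chromosome 5, 135353295 to 135368005) encodes an E3 ubiquitin ligase known from the stomach and starts 3251 bases beyond the edge of the interval, which is the start of the Fkbp6 gene on the opposite strand. It had 5.66, 5.77 and 6.11 CPM in CD JZL184 and 0.116 and 0.0994 CPM in WT VEH, a 53.9-fold difference (log2 fold-change 5.75, 95% interval 4.95 to 6.55, edgeR adjusted p = 1.09e-06). The 3 CD VEH mice had 6.76, 6.17 and 6.88 CPM. The WT JZL184 mice had 0.0130 and 0.0574 CPM, and 1 was listed at 0. Thus all 6 mice with the deletion lay far above the 5 without it. Trim50 was a DEG in all 16 alternatives in which it was tested, and under the remaining alternative, at least 10 counts in every mouse, it did not enter the test.

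The RefSeq promoter window of Fkbp6, the gene start that faces Trim50, is shown because the 2 genes with more counts in mice with the deletion lie on either side of it (chr5:135349864-135350163, GRCm38.p6, minus strand, 5′ to 3′). No entry for Trim50 was matched. The window holds neither TATAAA nor a CArG box (the binding motif of serum response factor) on either strand, and so nothing is in capitals.
Fkbp6: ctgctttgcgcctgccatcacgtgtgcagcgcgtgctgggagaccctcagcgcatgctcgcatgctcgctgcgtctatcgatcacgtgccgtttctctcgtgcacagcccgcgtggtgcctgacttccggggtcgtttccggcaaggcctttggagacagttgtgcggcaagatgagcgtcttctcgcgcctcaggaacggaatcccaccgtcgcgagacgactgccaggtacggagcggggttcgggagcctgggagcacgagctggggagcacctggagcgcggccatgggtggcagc

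Around the interval, Trim50 was the exception. The other 22 tested genes within 1 Mb of the edges were not DEGs, with log2 fold-changes from -0.46 (Ncf1) to 0.24 (Rasa4). On the Gtf2i side, Gtf2ird2 had 4.90, 4.97 and 4.74 CPM in CD JZL184 and 4.79 and 4.76 CPM in WT VEH. Ncf1, a subunit of the phagocyte NADPH oxidase, had 2.67, 3.50 and 2.76 CPM against 3.75 and 4.46 CPM (95% interval -0.98 to 0.05). Nsun5, the next tested gene beyond Trim50 and an RNA methyltransferase, had 6.95, 6.05 and 6.78 CPM against 5.92 and 7.17 CPM. Between 1 and 5 Mb beyond the Fkbp6 edge, 60 genes were tested and 0 were DEGs by edgeR, with a median log2 fold-change of 0.05. Of these 60 genes, 9 had an unadjusted p under 0.05, against 1150 of all 12240 genes (9.4%). At the same distance on the Gtf2i side, 21 genes were tested, with 0 DEGs by edgeR and 1 at an unadjusted p under 0.05. Asl, on that side, had a log2 fold-change of 0.56 (edgeR adjusted p = 0.0906) and was called by DESeq2 (adjusted p = 0.00368). In CD VEH against WT JZL184 its log2 fold-change was 0.49 (edgeR adjusted p = 0.0547).

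**Figure D3:**
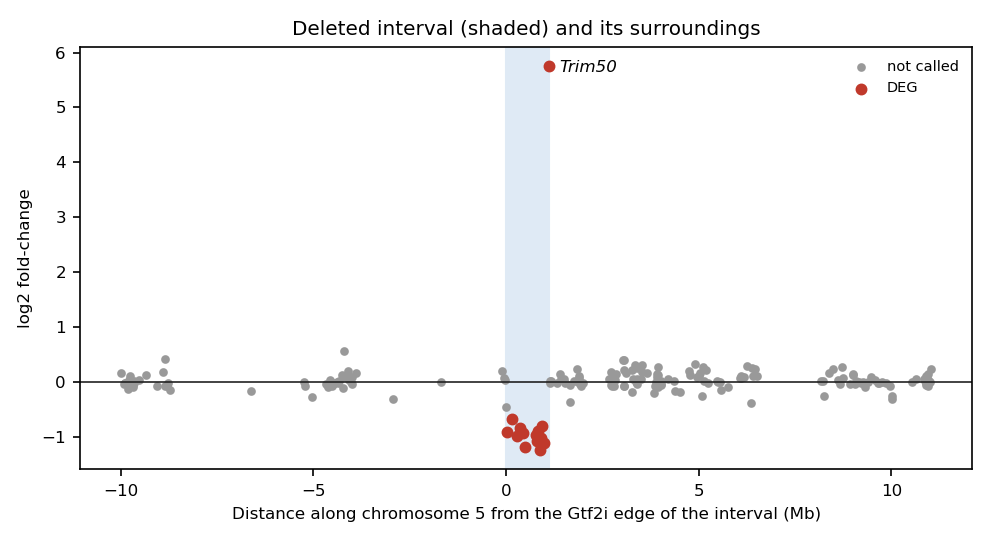
Log2 fold-change of CD JZL184 against WT VEH (vertical axis) by distance along chromosome 5 from the Gtf2i edge of the deleted interval (horizontal axis, Mb). The interval is shaded, red points are DEGs and grey points tested genes without a call. The 15 interval genes lie near -1, Trim50 stands at 5.75 just beyond the interval, and the other 22 genes within 1 Mb lie between -0.46 and 0.24.

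Outside chromosome 5, 2 genes of the thin filament of the sarcomere were lower in CD JZL184 hearts. Acta1 (chromosome 8, 123891769 to 123894751) encodes skeletal alpha-actin, which the heart makes mainly before birth and again under load. It had 31.3, 74.2 and 45.6 CPM in CD JZL184 and 225 and 204 CPM in WT VEH. This was a 4.26-fold lower level (log2 fold-change -2.09, 95% interval -2.89 to -1.29, edgeR adjusted p = 0.0482). CD VEH mice had 22.3, 59.9 and 54.1 CPM and WT JZL184 mice 178, 194 and 159 CPM, so that all 6 CD mice lay below all 5 WT mice. Tmod4 (chromosome 3, 95124476 to 95129209), a tropomodulin that caps the pointed ends of actin filaments in skeletal muscle, had 9.43, 9.02 and 7.35 CPM against 14.4 and 14.9 CPM (edgeR adjusted p = 0.0179, with -0.76 as the log2 fold-change and an SE of 0.11). Its level was 8.11 to 9.70 CPM in CD VEH and 15.3 to 18.3 CPM in WT JZL184, again without overlap of the genotypes.

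Of the 8 skeletal muscle markers, Myh4, a myosin of fast skeletal fibers, was at or under 3 counts, Myh1, Myh2, Mylpf and Tnnt3 did not pass the filter, and Acta1, Ckm and Tnni2 did. Their summed level was 1448 to 1556 CPM in CD JZL184 and 1703 to 1820 CPM in WT VEH, and the part of skeletal muscle in the differences of Acta1 and Tmod4 was not tested. The span of Acta1 is overlapped over its 2983 bases by Gm20388 on the opposite strand, whose log2 fold-change was -0.10 (edgeR adjusted p = 0.836).

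The promoter windows of these 2 genes are shown because both encode thin filament proteins and were lower together. Capitals mark TATAAA and the CArG box. The Acta1 window (chr8:123894726-123895025, minus strand) holds a CArG box at bases 178 to 187 and TATAAA at bases 244 to 249, and the Tmod4 window (chr3:95124264-95124563, plus strand) holds neither. Among 32851 RefSeq promoter windows of GRCm38.p6, a CArG box on either strand was found in 1.63% and TATAAA in 13.6%. The windows hold 300 bases, and a match describes their letters only.
Acta1: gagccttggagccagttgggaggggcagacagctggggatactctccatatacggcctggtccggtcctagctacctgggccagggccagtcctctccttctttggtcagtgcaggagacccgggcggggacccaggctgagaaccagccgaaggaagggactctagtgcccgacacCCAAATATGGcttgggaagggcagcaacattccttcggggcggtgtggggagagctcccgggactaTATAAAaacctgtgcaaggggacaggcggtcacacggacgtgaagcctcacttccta
Tmod4: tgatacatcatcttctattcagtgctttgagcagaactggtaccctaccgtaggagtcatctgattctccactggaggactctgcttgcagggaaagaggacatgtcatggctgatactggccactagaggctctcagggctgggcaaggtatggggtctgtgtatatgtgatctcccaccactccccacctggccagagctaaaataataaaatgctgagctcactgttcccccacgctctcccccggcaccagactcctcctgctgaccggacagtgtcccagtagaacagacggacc

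The 4 other genes that were higher in CD JZL184 were Grk5, Slc16a7, Unc13b and Mpnd. Grk5 (chromosome 19, 60889749 to 61095968) encodes a kinase that desensitizes adrenergic and other G protein-coupled receptors in heart muscle. It had 33.9, 42.0 and 37.1 CPM in CD JZL184 and 19.3 and 22.9 CPM in WT VEH (1.79-fold, edgeR adjusted p = 0.0082, with 0.84 as the log2 fold-change and an SE of 0.11). CD VEH mice had 36.8 to 37.3 CPM and WT JZL184 mice 20.1 to 25.2 CPM, so the 2 genotypes did not overlap under either treatment. The span of Grk5 overlaps by 42129 bases with Zfp950 on the opposite strand, whose log2 fold-change was -0.26 (edgeR adjusted p = 0.492).

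Slc16a7 (chromosome 10, 125219270 to 125389465), a transporter of pyruvate, lactate and ketone bodies, had 13.7, 11.3 and 15.8 CPM in CD JZL184 and 6.84 and 7.17 CPM in WT VEH (1.94-fold, edgeR adjusted p = 0.0182, with 0.96 as the log2 fold-change and an SE of 0.14). CD VEH had 12.4 to 14.4 CPM and WT JZL184 4.80 to 6.38 CPM. Unc13b (chromosome 4, 43058953 to 43264871) encodes a protein that primes vesicles for release and had 19.6, 19.98 and 22.3 CPM against 13.2 and 12.5 CPM (edgeR adjusted p = 0.0205, with 0.69 as the log2 fold-change and an SE of 0.10). Its WT JZL184 mice had 13.7 to 17.3 CPM and its CD VEH mice 17.8 to 20.5 CPM, a narrower gap. Mpnd (chromosome 17, 56005711 to 56016790), a gene of the MPN domain family, had 40.6, 40.6 and 39.4 CPM against 27.3 and 31.2 CPM, a 1.37-fold difference (edgeR adjusted p = 0.042, with 0.46 as the log2 fold-change and an SE of 0.08).

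The 2 remaining DEGs were lower and lie on chromosome 4. 2310002L09Rik (73939371 to 73950846), a gene without an assigned name, had 16.8, 19.8 and 20.3 CPM in CD JZL184 and 35.2 and 32.2 CPM in WT VEH (edgeR adjusted p = 0.0379, with -0.83 as the log2 fold-change and an SE of 0.14). It was the 1 DEG outside the interval in which the 6 CD mice were not apart from the 5 WT mice, with 21.97 to 31.9 CPM in CD VEH and 25.9 to 30.8 CPM in WT JZL184. Zfp985 (147553277 to 147585198), a zinc finger gene in a cluster of similar copies that may share reads, had 0.867, 0.897 and 0.827 CPM against 1.92 and 1.55 CPM (edgeR adjusted p = 0.0469, with -1.004 as the log2 fold-change and an SE of 0.18).

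**Figure D4:**
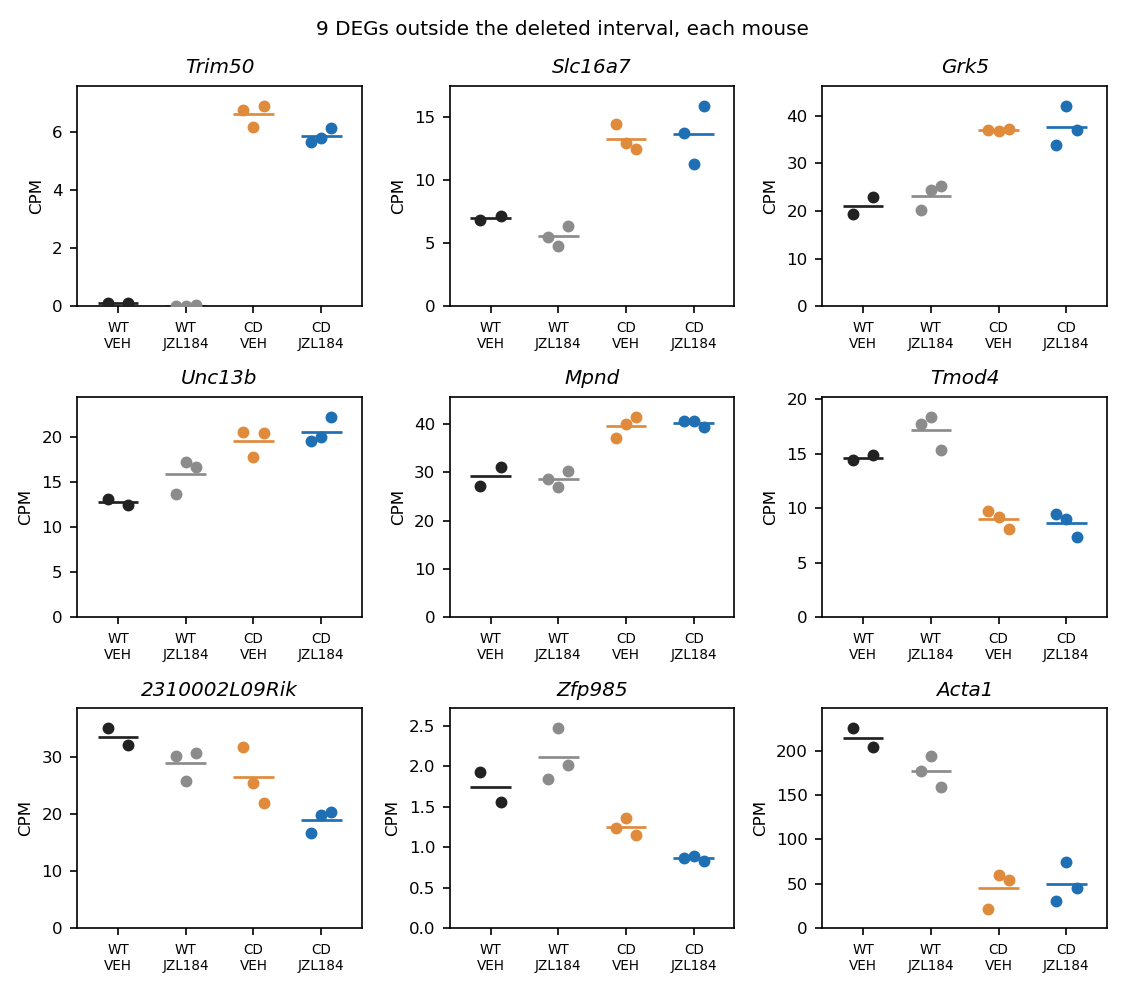
CPM (vertical axis, from 0) of the 9 DEGs outside the deleted interval in each of the 11 mice, by group. Points are mice and horizontal bars are group means. In all panels except 2310002L09Rik the 6 CD mice lie on 1 side of the 5 WT mice, and Trim50 is at 0.116 CPM or less in all WT mice.

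Whether these differences were also found between the genotypes in other animals was examined in CD VEH against WT JZL184, a comparison chosen after seeing the data, which uses none of the 5 compared mice but the same model and its spread. There, 0.376% of the tested genes were DEGs. Of the 9 genes outside the interval, all 9 had the same direction and 6 were DEGs again. These were Trim50, Slc16a7 (log2 fold-change 1.25, edgeR adjusted p = 0.000558), Tmod4 (-0.93, edgeR adjusted p = 0.000945), Mpnd (0.47, edgeR adjusted p = 0.00997), Grk5 (0.67, edgeR adjusted p = 0.0104) and Acta1 (-1.96, edgeR adjusted p = 0.0308). Zfp985 (-0.76, edgeR adjusted p = 0.0599), Unc13b (0.30, edgeR adjusted p = 0.233) and 2310002L09Rik (-0.13, edgeR adjusted p = 0.765) did not pass. For 8 of the 9, all 6 CD mice were apart from all 5 WT mice, which was the case for 1.41% of all tested genes, and the 9 genes were chosen on 5 of these mice. In CD JZL184 against CD VEH, the log2 fold-change of Trim50 was -0.18 (95% interval -0.49 to 0.14), of Grk5 0.02 (-0.19 to 0.24), of Slc16a7 0.04 (-0.23 to 0.31), of Tmod4 -0.06 (-0.29 to 0.16), of Mpnd 0.02 (-0.13 to 0.17), of Acta1 0.15 (-0.57 to 0.87) and of Unc13b 0.07 (-0.13 to 0.27). The other 2 genes were lower in the treated than in the vehicle CD mice, 2310002L09Rik with a log2 fold-change of -0.48 (edgeR adjusted p = 0.0147) and Zfp985 with -0.53 (edgeR adjusted p = 0.0273).

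The calls outside the interval depended on single mice. The number of such DEGs was 7 without CD JZL184 mouse A, 5 without C, 2 without E, 1 without WT VEH mouse C and 3 without WT VEH mouse D. Of the 9 genes themselves, 4, 5, 2, 1 and 2 stayed DEGs in the same order, Trim50 among them each time. Grk5 lost its call only without WT VEH mouse C (edgeR adjusted p = 0.24), and Tmod4 without CD JZL184 mouse E and without either WT VEH mouse (up to 0.225). Slc16a7 lost it without CD JZL184 mouse A or E or either WT VEH mouse (up to 0.337), Unc13b without CD JZL184 mouse C or E or either WT VEH mouse (up to 0.361), and Acta1 without CD JZL184 mouse A or E or either WT VEH mouse (up to 0.379). The calls of Mpnd, 2310002L09Rik and Zfp985 were lost without any 1 of the 5 mice, with adjusted p-values up to 0.598, 0.422 and 0.598. Other settings also ended calls. Upper quartile factors and robust estimation ended those of Acta1 and Eln, upper quartile factors that of Zfp985, and a filter on the average log2 CPM that of Acta1. Offsets for length or GC content ended those of Mpnd (both) and Zfp985 (GC), but these offsets also shifted the overall level of each mouse. With 1 WT VEH mouse left out, the remaining one was assumed to vary like the mice of the other groups.

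The number of calls also depended on the test. DESeq2 called 0.915% of the genes, 97 of them outside the interval (55 higher, 42 lower). edgeR fitted to the 5 mice alone called 0.825%, 86 of them outside (39 higher, 47 lower). Both called 42 genes outside the interval, 21 higher and 21 lower. The 9 outside DEGs were among those of both. Among the genes that both called and the fit of all mice did not were Alox5, Meox2, Cdkn1a, Adcy1 and Scn4a, described further on, and Fam81a, Cdk2 and Ahr. Fam81a had 3.41, 3.10 and 3.47 CPM in CD JZL184 and 7.05 and 7.20 CPM in WT VEH (log2 fold-change -1.10, edgeR adjusted p = 0.0548), and -1.45 on the log2 scale between CD VEH and WT JZL184 (edgeR adjusted p = 0.00283). Cdk2, a cell cycle kinase, had a log2 fold-change of 0.48 (edgeR adjusted p = 0.0612), and Ahr, the aryl hydrocarbon receptor, of 0.50 (edgeR adjusted p = 0.0906). Between CD VEH and WT JZL184, Cdk2 had 0.12 on the log2 scale (edgeR adjusted p = 0.627), and Ahr had the opposite direction with -0.33 (edgeR adjusted p = 0.131). Fam81a, Cdk2 and Ahr were chosen after their values were seen.

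In the gene lists of heart function, the DEGs were the sarcomere genes Acta1 and Tmod4, 2 of 33 tested, against 0.196% of all genes. The lists held 9 called genes with DESeq2 and 16 with edgeR on the 5 mice alone, Trim50 included. Of the sarcomere genes, 27 had a log2 fold-change below 0 and 6 above, with a median of -0.10, against 6190 of all 12240 genes below 0 and a median of 0.00. Myh7b, a slow myosin, had 51.7, 41.3 and 57.1 CPM in CD JZL184 and 75.3 and 70.9 CPM in WT VEH (log2 fold-change -0.55, edgeR adjusted p = 0.292), and Neb, which spans the thin filament, 3.37, 3.96 and 4.33 CPM against 6.93 and 7.08 CPM (log2 fold-change -0.85, edgeR adjusted p = 0.29, and adjusted p = 0.0185 on the 5 mice alone). The main myosin of the adult ventricle, Myh6, had 14931, 14761 and 16030 CPM against 14923 and 15375 CPM, with a 95% interval of the log2 fold-change from -0.34 to 0.36. Its fetal counterpart Myh7 had 175, 153 and 166 CPM against 261 and 160 CPM, so the groups overlapped.

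Genes of calcium handling (0 DEGs of 17 tested, 1 at an unadjusted p under 0.05 by edgeR) and cardiac ion channels (0 of 26, 6 at an unadjusted p under 0.05) did not pass the test. These were 5.88% and 23.1% of the lists at an unadjusted p under 0.05, against 9.4% of all genes. edgeR on the 5 mice alone called the potassium channel subunit gene Kcne1 (adjusted p = 0.0357) and the sodium channel subunit gene Scn4b (adjusted p = 0.0102). In the fit of all mice, their log2 fold-changes were -0.62 and 0.46 (edgeR adjusted p = 0.459 and 0.659), and DESeq2 did not call them. Between CD VEH and WT JZL184, Kcne1 had the opposite direction with 0.27 on the log2 scale, and Scn4b had 0.03. Atp2a2, the calcium pump of the sarcoplasmic reticulum, had 10645 to 11370 CPM in CD JZL184 and 9830 and 10385 CPM in WT VEH (log2 fold-change 0.13, 95% interval -0.12 to 0.38). Hcn2, a pacemaker channel, had a log2 fold-change of -0.56 (95% interval -0.99 to -0.14, edgeR adjusted p = 0.394), and -0.37 without WT VEH mouse D.

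Of 12 tested genes of hypertrophy and stretch, 0 were DEGs by edgeR, 2 had an unadjusted p under 0.05 (16.7%, against 9.4% of all genes) and 10 had a log2 fold-change below 0, with a median of -0.23. The natriuretic peptide gene Nppa had 125, 106 and 72.8 CPM in CD JZL184 and 191 and 169 CPM in WT VEH (95% interval of the log2 fold-change -1.66 to -0.01, edgeR adjusted p = 0.52), and Nppb 109, 100 and 162 CPM against 229 and 185 CPM (95% interval -1.61 to 0.13, edgeR adjusted p = 0.586). Rcan1, an inhibitor of calcineurin whose transcription calcineurin raises, had 65.8, 74.6 and 76.9 CPM against 103 and 128 CPM (log2 fold-change -0.68, edgeR adjusted p = 0.416, and adjusted p = 0.025 on the 5 mice alone). The summed level of the 8 atrial cardiomyocyte markers, which include Nppa, was 135 to 187 CPM in CD JZL184 and 227 to 250 CPM in WT VEH, with Bmp10 at the floor of 3 counts and Myl7 and Sln below the filter, and the part of atrial tissue in these values was not tested. For these 3 genes every CD JZL184 mouse lay below both WT VEH mice, as for 36.3% of all tested genes in 1 direction or the other.

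The endocannabinoid and eicosanoid genes, the pathway of the drug target, held 20 tested genes and 0 DEGs by edgeR. At an unadjusted p under 0.05 there were 3 (15%, against 9.4% of all genes). Mgll, which encodes the enzyme that JZL184 inhibits, had 104, 135 and 107 CPM in CD JZL184 and 101 and 123 CPM in WT VEH (log2 fold-change 0.04, 95% interval -0.25 to 0.34). Alox5, the lipoxygenase that starts leukotriene synthesis from arachidonic acid, had 18.9, 22.3 and 20.4 CPM against 10.4 and 12.8 CPM. Its groups did not overlap and its log2 fold-change was 0.82 (95% interval 0.50 to 1.14), with an edgeR adjusted p of 0.0671, and both DESeq2 and the fit of the 5 mice alone called it. In CD VEH against WT JZL184 its log2 fold-change was 0.79 (edgeR adjusted p = 0.0262). Ptgds, a prostaglandin D synthase, had a log2 fold-change of -0.55 (edgeR adjusted p = 0.531). The receptor Cnr1 had 3, 4 and 2 counts in CD JZL184 and 1 and 1 in WT VEH, too few for a comparison, and Cnr2 had 56, 78 and 59 against 55 and 54.

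Among the metabolic and mitochondrial lists, edgeR called 0 genes, with 0 at an unadjusted p under 0.05 in fatty acid oxidation and the nuclear respiratory chain, 2 in lipid uptake and PPAR targets and 1 among ribosomal proteins. The 13 protein-coding genes of the mitochondrial genome all had a log2 fold-change below 0 (median -0.20), 4 of them (30.8%, against 9.4% of all genes) at an unadjusted p under 0.05, and these genes are transcribed as shared precursors. mt-Atp8 had 2221, 1827 and 1308 CPM in CD JZL184 and 3158 and 2314 CPM in WT VEH (log2 fold-change -0.62, edgeR adjusted p = 0.468), and mt-Nd3 had 3854, 3477 and 3023 CPM against 4828 and 3962 CPM (log2 fold-change -0.35, edgeR adjusted p = 0.439). Without WT VEH mouse C, these values were -0.37 for mt-Atp8 and -0.20 for mt-Nd3. The 29 nuclear respiratory chain genes had a median of -0.05, and the 95% interval of all 29 lay within 1.5-fold, as it did for all 19 genes of fatty acid oxidation (median 0.03). Of 28 genes of lipid uptake and PPAR targets, 23 had a log2 fold-change above 0 (median 0.10). Among them Slc2a1, a glucose transporter, had 10.7, 11.5 and 11.25 CPM against 8.93 and 8.48 CPM (log2 fold-change 0.36, edgeR adjusted p = 0.323). Of 42 cytoplasmic ribosomal protein genes, 41 had a 95% interval within 1.5-fold, the exception being Rps27 (3.96, 2.34 and 2.91 CPM against 4.67 and 7.46 CPM), whose reads may be split with processed copies.

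Lars2, the mitochondrial leucyl-tRNA synthetase, is a case where 1 mouse set the value. It had 515, 507 and 526 CPM in CD JZL184, 621 CPM in WT VEH mouse D and 1599 CPM in WT VEH mouse C. The log2 fold-change was -1.11 (95% interval -1.78 to -0.43, edgeR adjusted p = 0.268), and -0.27 without WT VEH mouse C.

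Immune and stress lists had 0 DEGs in the edgeR fit of all mice. Of 22 genes of antigen presentation and interferon response, 19 had a log2 fold-change above 0 (median 0.22), and 2 (9.09%, against 9.4% of all genes) had an unadjusted p under 0.05. Irf7, a regulator of interferon genes, had 9.58, 15.4 and 10.6 CPM in CD JZL184 and 6.94 and 9.65 CPM in WT VEH, and the MHC class I gene H2-K1 had 85.5, 113 and 113 CPM against 81.2 and 82.5 CPM. Of 21 macrophage genes, 15 had a log2 fold-change below 0 (median -0.06, 2 at an unadjusted p under 0.05), with Lyve1, a marker of resident macrophages and lymphatic vessels, at 9.68, 11.9 and 9.82 CPM against 15.9 and 15.96 CPM (log2 fold-change -0.60, edgeR adjusted p = 0.403, and adjusted p = 0.0314 on the 5 mice alone). The chemokine gene Ccl9 had 5.002, 7.45 and 4.37 CPM against 8.04 and 11.7 CPM. In whole tissue, fewer cells of a type and less RNA per cell cannot be told apart.

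Of 13 glucocorticoid-responsive genes, 11 had a log2 fold-change below 0, with a median of -0.38, the lowest of the lists outside the interval, and 4 (30.8%, against 9.4% of all genes) had an unadjusted p under 0.05. Errfi1, a feedback inhibitor of the EGF receptor, had 17.8, 14.0 and 17.8 CPM in CD JZL184 and 22.4 and 24.95 CPM in WT VEH (log2 fold-change -0.52, edgeR adjusted p = 0.105). Cdkn1a, the cell cycle inhibitor p21, had 29.2, 26.1 and 19.0 CPM against 46.0 and 46.4 CPM (log2 fold-change -0.90, edgeR adjusted p = 0.177), and Sgk1, a kinase induced by corticosteroids, had 33.6, 37.3 and 31.0 CPM against 46.7 and 46.8 CPM (log2 fold-change -0.46, edgeR adjusted p = 0.277). DESeq2 called Errfi1 (adjusted p = 0.00253) and Cdkn1a (adjusted p = 0.00303), and edgeR on the 5 mice alone called Cdkn1a and Sgk1 (adjusted p = 0.0439 for both). In CD VEH against WT JZL184, the log2 fold-changes of Errfi1, Cdkn1a and Sgk1 were 0.08, 0.09 and 0.10. The heat shock genes Hspa1a and Hspa1b, near-identical copies that may share reads, were high in CD JZL184 mice A and E (41.1 and 38.2 CPM for Hspa1b) and low in mouse C (9.44 CPM), against 7.81 and 9.23 CPM in WT VEH.

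**Figure D5:**
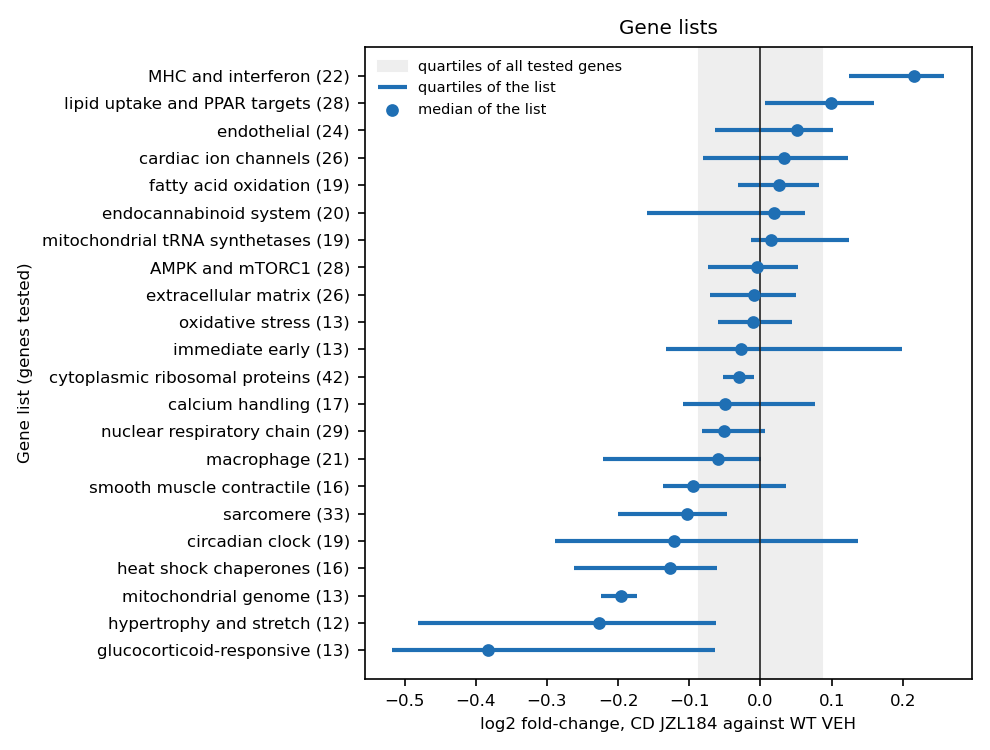
Median (point) and quartiles (bar) of the log2 fold-change of CD JZL184 against WT VEH (horizontal axis) for the tested genes of each gene list (vertical axis, number tested in brackets). The grey band spans the quartiles of all 12240 tested genes. The lists of the deleted interval and its edges are not drawn. Among those drawn, glucocorticoid-responsive genes have the lowest median, at -0.38, and genes of antigen presentation and interferon response the highest, at 0.22.

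Endothelial (24 tested), extracellular matrix (26), smooth muscle (16), AMPK and mTORC1 (28), circadian (19), immediate early (13), heat shock (16), oxidative stress (13) and mitochondrial tRNA synthetase (19) genes held 0 DEGs by edgeR. At an unadjusted p under 0.05, they held 3, 0, 1, 2, 1, 1, 2, 1 and 2 genes. In the same order, these were 12.5%, 0%, 6.25%, 7.14%, 5.26%, 7.69%, 12.5%, 7.69% and 10.5% of the lists, against 9.4% of all genes. Among the circadian genes, edgeR on the 5 mice alone called Nfil3 (adjusted p = 0.0342) and Dbp (adjusted p = 0.046), among others. In the fit of all mice, the log2 fold-changes of Nfil3 and Dbp were -0.67 and 0.88 (edgeR adjusted p = 0.566 and 0.717). Between CD VEH and WT JZL184 they were -0.57 and 0.15. Meox2, a homeobox gene of the vascular endothelium, had 11.8, 11.8 and 11.5 CPM in CD JZL184 and 8.26 and 8.83 CPM in WT VEH (log2 fold-change 0.45, edgeR adjusted p = 0.15), and was called by DESeq2 (adjusted p = 0.0111) and by edgeR on the 5 mice alone (adjusted p = 0.0232). Between CD VEH and WT JZL184 it had 0.01 on the log2 scale (edgeR adjusted p = 0.9751). Acta2, smooth muscle actin, had 37.1, 47.5 and 36.1 CPM against 50.1 and 67.7 CPM (log2 fold-change -0.55, edgeR adjusted p = 0.401, and a log2 fold-change of -0.32 without WT VEH mouse D). The AMPK subunit genes Prkab1 and Prkag3 had log2 fold-changes of 0.37 (edgeR adjusted p = 0.292) and -0.54 (edgeR adjusted p = 0.29). The study listed genes of 8 Reactome pathways that were also differentially expressed in these mice, so the list is not independent of the data. Of its 117 tested genes, 2 were DEGs (against 0.196% of all genes), Acta1 and Tmod4, and the median was -0.02. Adcy1, an adenylyl cyclase of these pathways, had a log2 fold-change of -1.002 (95% interval -1.48 to -0.53, edgeR adjusted p = 0.142), and was called by DESeq2 (adjusted p = 0.0033) and by edgeR on the 5 mice alone (adjusted p = 0.0112). Between CD VEH and WT JZL184 it had -0.65 on the log2 scale (edgeR adjusted p = 0.235).

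Among genes with a mean of at least 10 CPM and without overlap of the groups, those with large differences but no call in the fit of all mice included Scn4a, a sodium channel of skeletal muscle, at 23.6, 25.6 and 25.3 CPM in CD JZL184 and 15.5 and 14.5 CPM in WT VEH (log2 fold-change 0.73, edgeR adjusted p = 0.279). DESeq2 (adjusted p = 0.0437) and edgeR on the 5 mice alone (adjusted p = 0.00284) called Scn4a, and between CD VEH and WT JZL184 it had 0.50 on the log2 scale (edgeR adjusted p = 0.344). Aplnr, the apelin receptor, had a log2 fold-change of 0.64, the class I gene H2-Q6, which has near-identical relatives, of 0.78, and Bdh1, a ketone body enzyme, of 0.61 (adjusted p = 0.025 by edgeR on the 5 mice alone). Ddit4, an inhibitor of mTORC1, had a log2 fold-change of -0.70. In all, 24 genes without a call had an absolute log2 fold-change above 1, 20 of them with a mean under 10 CPM and 7 with overlapping groups.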

How the data were processed

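Heart RNA (source in the labels: ventricle) from 11 mice was sequenced on a HiSeq3000. The authors deposited a table of estimated counts, unnormalized, in which transcripts quantified by Salmon 0.7.2 (Ensembl release 85, GRCm38) were summed to genes by tximport 1.2.0. The counts were rounded and tested with edgeR 4.0.16 (R 4.3.3, limma 3.58.1, TMM factors, quasi-likelihood F-test, Benjamini-Hochberg adjustment over 12240 genes), with all 4 groups in 1 model. CPM values are TMM-scaled. Wald intervals of 95% came from the moderated spread. Positions are from GENCODE mouse release 21, and promoter windows from RefSeq, with 3 of 4 genes matched. Column headings give a group and a letter absent from the sample labels, so samples were not paired. Separate animals were taken as replicates. In the fit of all mice, the edgeR p-values set each difference against the spread between mice within groups, estimated over all 4 groups and moderated across genes. Named genes were the DEGs, interval genes, genes within 1 Mb, the 10 highest and 10 lowest log2 fold-changes without overlap at 10 CPM or more, and per list the 2 lowest p and 2 highest means. Not all are described, and some others were named after their values were seen (Fam81a, Cdk2, Ahr, Sgk1, Adcy1, Neb, Myh7b, Hspa1a, Kcne1, Scn4b, Nfil3, Dbp, Asl). The genes and lists were chosen with earlier results of these data known. Some genes are not reported here. Steps were tested on simulated counts. Alternatives are given below, among them DESeq2 1.42.0.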

Additional observations from a re-analysis of the deposited data

Results flagged for a closer look

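For 11 of the 24 DEGs, the effect of genotype differed between treatments by the edgeR interaction test (added after the data were seen), against 50.3% of all tested genes. The interaction is the log2 fold-change of CD against WT under JZL184 minus that under vehicle, so a positive value means a weaker loss under JZL184 for a gene that is lower in CD mice. Positive values were found for Gtf2ird1 (0.79), Mlxipl (0.76), Baz1b (0.70), Gtf2i (0.66), Tbl2 (0.39) and Dnajc30 (0.31). Negative values were found for Clip2 (-0.86), Zfp985 (-0.81), Eln (-0.75) and Bcl7b (-0.24). Trim50 had 1.84, a fitted value that rests on WT JZL184 mice with 0.0574 CPM or less, and its CD mice lay between 5.66 and 6.88 CPM under both treatments. The mitochondrial share of counts was higher in CD VEH and WT JZL184 (43.5% to 46.6%) than in CD JZL184 and WT VEH (36.4% to 41.2%), the same split of the 4 groups as in the interaction, and its part was not tested.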

How the results depend on the processing

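The number of DEGs was 24, and 9 outside the interval. DESeq2 gave 112 and 97, the 5 compared mice alone 101 and 86, and an adjusted p under 0.01 gave 14 and 2. Outside the interval, an offset for transcript length gave 16, an offset for GC content 19 (both chosen after seeing the data) and an adjusted p under 0.1 gave 20. Both offsets were fitted to values without TMM scaling and then added to it, so they also shifted the overall level of each mouse. What changed with them cannot be assigned to length or GC content alone. Leaving out 1 of the 5 mice gave 12 to 20 DEGs and 1 to 7 outside. Genes called in the gene lists numbered 3, and 9 with DESeq2, 16 with the 5 mice alone, 7 with the GC offset, 1 at an adjusted p under 0.01 and 1 to 3 with a mouse left out. Genes at an unadjusted p under 0.05 numbered 1150, 2010 with the 5 mice alone and 539 to 1274 with a mouse left out. The median of the interval genes (-1.09 to -0.92) and the number of genes within 1.5-fold (9403 to 11037) stayed within 1.5 times their values in the alternatives run for them. The number of the 9 outside DEGs called in CD VEH against WT JZL184 was 6, 4 without CD VEH mouse E, and 5 to 7 in the other alternatives run for it. Other scaling factors (RLE 24, upper quartile 21), filters (21 to 29) and robust estimation (22) moved the count of DEGs less than 1.5 times, and no DEG changed direction in any alternative.

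Some log2 fold-changes near 0 changed sign. With the length and GC offsets, which moved the median of all genes by about -0.07, these were Nsun5 (-0.0693 and -0.0975), Gtf2ird2 (-0.0465 and -0.0827), Mgll (-0.0317 and -0.0664) and Myh6 (-0.0597 and -0.1085). With a mouse left out, they were Nsun5 (-0.1212 to 0.1553), Mgll (-0.0925 to 0.1967), Myh6 (-0.0291 to 0.0312) and Myh7 (-0.6619 to 0.0409, above 0 without WT VEH mouse C). No paired analysis was possible because the columns carry letters that no sample label holds, so columns cannot be matched to numbered samples. Some letters recur between groups, but what they stand for is unknown, and a model with a term for the letter was not fitted. The 2 WT VEH mice limit every statement here, and an exact rank test of a single value between 3 and 2 mice cannot give a two-sided p below 0.2.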
